A study of Pinctada fucata with 3 samples.

Results

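In mantle tissue of Pinctada fucata, a pearl oyster, 132 genes were abundant after injection of control double-stranded RNA (dsRNA). After dsRNA against either of 2 components of NF-κB signalling, each was at 25% of that level or less. The members were chosen by their deposited FPKM, which is the number of sequenced fragments per kilobase of transcript and per 1000000 fragments mapped. A gene was included if it stood at 100 FPKM or more in the control library and at 25% of its control value or less in each of the knockdown libraries. They were 132 of the 33072 listed genes (0.399%) and 132 of the 1009 abundant control genes, those at 100 FPKM or more in control (13.1%), while 5.00% of all genes that averaged 1 FPKM or more fell as far in both knockdown libraries. Since the rule used the values of all 3 libraries, the fall of the members against the control is the way they were found, and it is described here without a test.

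The mantle is the tissue that lines the molluscan shell and secretes proteins that become part of that shell. Rel proteins are transcription factors of the NF-κB family, best known for switching on immune genes, and IκB binds such factors and retains them in the cytoplasm until it is degraded. A gene activated by Rel would therefore be expected, from this textbook scheme, to respond in opposite ways to the loss of the factor and to the loss of its inhibitor. Whether the scheme holds for any gene here was not tested. The rule kept only genes that were lower with both dsRNAs, so the members cannot bear on it.

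Adult oysters of similar size received 30 μg of dsRNA in the adductor muscle, and mantle was sampled 7 days later. The groups were Pf-Rel dsRNA, poI-kappaB dsRNA (called IκB dsRNA below) and GFP dsRNA, the control, against a green fluorescent protein that oysters lack. Each group held 5 oysters and gave 1 library, and whether the pieces of mantle were pooled is not stated in the labels. All groups were injected with dsRNA, and no uninjected oysters were analysed here. With 1 library per group no value has a replicate error, no p-value was computed, and differences are between libraries. The protocol names capture of poly(A) RNA as well as depletion of ribosomal RNA, without saying which library received which. The deposited table does not pair its identifiers with gene names, so the roles of the members, the markers of mantle and the knockdown of Rel and IκB themselves could not be examined. In a bulk library, fewer cells of a type and less RNA per cell cannot be told apart.

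The members ranged over the whole scale of abundant transcripts in the control. With GFP dsRNA the lowest member stood at 101 FPKM, the median at 308 FPKM and the highest at 17321 FPKM, and 25 members reached 1000 FPKM. With Rel dsRNA the median was 34.1 FPKM and the highest value 2945 FPKM. With IκB dsRNA the median was 38.6 FPKM and the highest value 3218 FPKM. By the rule, every member was higher in control than in either knockdown library. Of the 132 members, 29 were still at 100 FPKM or more with Rel dsRNA, and 29 with IκB dsRNA. Members below 10 FPKM numbered 13 in each knockdown library. The median rank of the members by abundance among all genes was 404 in control, 2363.5 with Rel dsRNA and 2131.5 with IκB dsRNA.

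**Figure D1:**
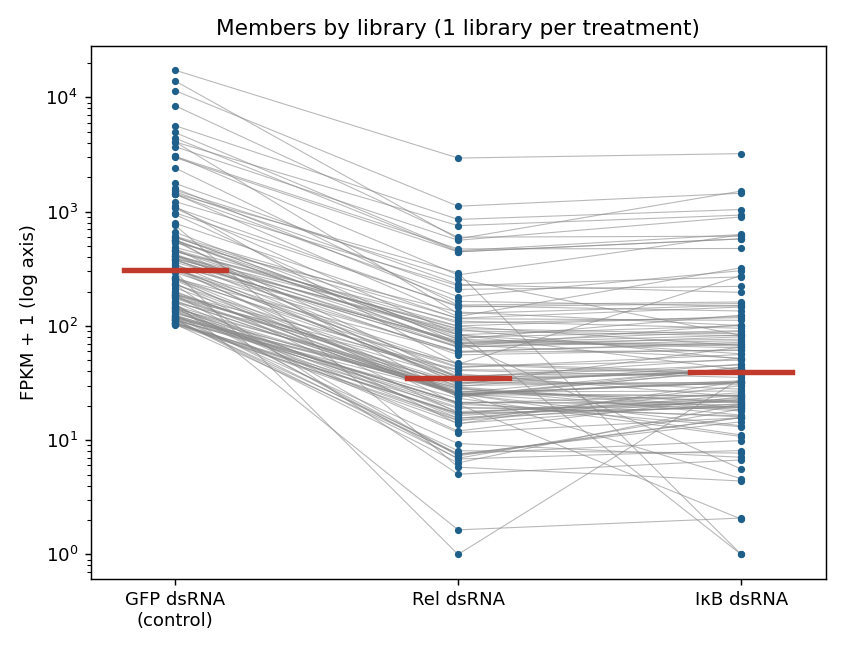
FPKM + 1 of the 132 members on a log axis in the 3 libraries, 1 point per gene, with grey lines joining the values of a gene and red bars at the medians (308, 34.1 and 38.6 FPKM). The lines drop from control to Rel dsRNA by construction of the rule and run mostly level from Rel dsRNA to IκB dsRNA.

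Together the members held 11.6% of the FPKM of the control library, 1.59% of that of the Rel dsRNA library and 1.71% of that of the IκB dsRNA library. Their summed FPKM was 8.49 times higher in control than with Rel dsRNA and 7.05 times higher than with IκB dsRNA. The libraries themselves did not sum to the same total. Over all genes the control reached 1.17e+06 FPKM, the IκB dsRNA library 1.13e+06 and the Rel dsRNA library 1.01e+06. The lower Rel total thus adds to the gap between 8.49 and 7.05. The shares above allow for these totals, while the multiples and the summed decreases below do not. The members accounted for 27.2% of the summed decreases over all genes that were below control with Rel dsRNA, and for 31.5% with IκB dsRNA. A few very abundant genes carried much of this. The 4 most abundant members held 37.8% of the members' FPKM in control, and 32.8% and 35.3% of it in the Rel and IκB dsRNA libraries. Of the 100 most abundant genes of the control library 13 were members, close to the 13.1% among all abundant control genes. In each knockdown library 1 of the 100 most abundant genes was a member, where the rule itself had capped the members' values.

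The most abundant member was BGI_novel_G008593, whose level was 17321 FPKM in the control library, 2945 FPKM in the Rel dsRNA library and 3218 FPKM in the IκB dsRNA library. It was the gene of rank 3 in the control library and of ranks 60 and 64 in the Rel and IκB dsRNA libraries. It was thus an abundant transcript in all 3 libraries, at 17.0% of control with Rel dsRNA and 18.6% with IκB dsRNA. The next member, pfu_aug2.0_8407.1_26278, fell from 13966 FPKM in control to 577 FPKM with Rel dsRNA and to 1513 FPKM with IκB dsRNA. Its value was thus lower with Rel dsRNA (4.13% of control) than with IκB dsRNA (10.8% of control). The third most abundant member was at 11471 FPKM in control, at 1115 FPKM after Rel dsRNA and at 1448 FPKM after IκB dsRNA. The fourth stood at 8472, 597 and 609 FPKM in the same order, with nearly the same level in both knockdown libraries.

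The members kept a median of 14.2% of their control level with Rel dsRNA (interquartile range 9.04% to 17.3%) and 14.7% with IκB dsRNA (10.3% to 19.9%). On the log2(FPKM + 1) scale, on which the changes of low genes are understated, the median difference from control was -2.77 with Rel dsRNA and -2.74 with IκB dsRNA. Over the 20728 genes whose mean over the libraries was 1 FPKM or more, hereafter the tested genes, these medians were 0.01 and -0.03. Among the tested genes 9.68% were at least 4-fold below control with Rel dsRNA, 9.31% with IκB dsRNA and 5.00% with both. Among the abundant control genes the shares were 18.1% for Rel dsRNA and 16.3% for IκB dsRNA, and the members are the 13.1% that passed with both. The rest of the abundant control genes, 877 in number, were at a median of 70.03% of control after Rel dsRNA and 75.04% after IκB dsRNA. Of all 1009 abundant control genes 668 were below control in both knockdown libraries. Lower values in the knockdown libraries were thus common among all genes picked for a high control level, and the members are those with the lowest.

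The depth of the fall varied among the members. At least 8-fold decreases were seen for 53 of the 132 members with Rel dsRNA, 51 with IκB dsRNA and 35 with both. Of all tested genes, 4.98% with Rel dsRNA, 4.54% with IκB dsRNA and 1.90% with both fell as far. At least 16-fold decreases were seen for 18 members with Rel dsRNA, 16 with IκB dsRNA and 6 with both. The matching shares of all tested genes were 3.23%, 2.99% and 0.984%. Since the rule already asked for a 4-fold fall, nothing follows from these shares of all tested genes. Of the 1036 tested genes of any level that were at least 4-fold below control with both dsRNAs, the members included, 38.0% reached 8-fold and 19.7% reached 16-fold with both, whereas 26.5% and 4.55% of the members did. These folds were taken on plain FPKM, and a tested gene needed a mean of only 1 FPKM. A gene low in control could thus pass 16-fold through knockdown values near the floor. The members were all at 100 FPKM or more in control, so the contrast does not show that their falls were shallower. The larger of the knockdown values was under 10% of control in 21 members, from 10% to below 20% in 66, and from 20% to 25% in 45. The 2 members at least 64-fold below control in both knockdown libraries were at ranks 29 and 96 by control level. The member of rank 29 by control level stood at 762 FPKM in control, at 4.80 FPKM after Rel dsRNA and at 3.39 FPKM after IκB dsRNA. The member of rank 96 stood at 158 FPKM, 0.64 FPKM and 1.08 FPKM in the same order. Both were picked out after their values were seen, and they do not show how depth of fall relates to control level.

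Membership was spread over all levels of control abundance. From 100 to below 200 FPKM in control, 52 of 437 genes (11.9%) were members, and from 200 to below 500 FPKM, 40 of 302 (13.2%). The share was 15 of 96 genes (15.6%) at 500 to below 1000 FPKM and 11 of 62 genes (17.7%) at 1000 to below 2000 FPKM. At 2000 FPKM or more, 14 of 112 genes (12.5%) were members. In this highest class the members kept a median of 9.91% of control with Rel dsRNA and 14.3% with IκB dsRNA, compared with 14.8% and 15.6% in the lowest class. Genes at least 4-fold above control in both knockdown libraries numbered 14 in the lowest class and 7 in the next, and 0 at 500 FPKM or more.

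**Figure D2:**
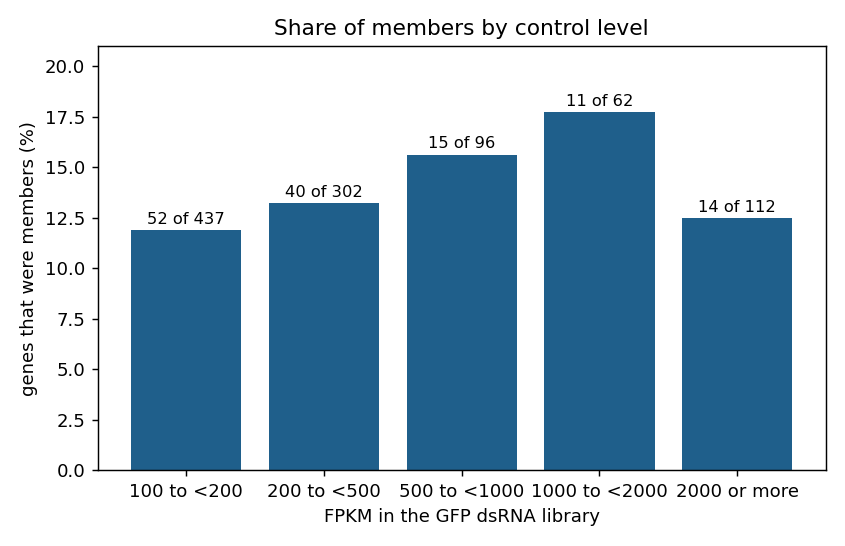
Percent of genes that were members in 5 classes of FPKM in the GFP dsRNA library, with the numbers of members and genes above each bar. The share lies between 11.9% and 17.7% in every class.

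The edges of the rule cut through a continuous range. The members closest to the 25% limit had a larger knockdown value of 24.96%, 24.7% and 24.6% of control, and the nearest abundant genes outside it had 25.2%, 25.2% and 25.3%. Another 47 abundant control genes lay above 25% and up to 30%. At the abundance limit, the members with the lowest control values stood at 101, 102.7 and 102.8 FPKM, and the nearest genes below it that met the fold limit stood at 99.5, 97.3 and 97.2 FPKM. Of the abundant control genes that passed the fold limit in a single knockdown library, 51 did so with Rel dsRNA and 32 with IκB dsRNA. In the other knockdown library these genes were at medians of 32.3% and 30.6% of control, so most of them were lower there as well.

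The same limits were applied with each other library in the place of the control, a comparison chosen after the data were seen. The Rel dsRNA library had 964 genes at 100 FPKM or more, of which 43 (4.46%) were at 25% or less of that value in both other libraries. The IκB dsRNA library had 968 such genes, of which 18 (1.86%) met the limit. On the deposited scale the control library thus gave the highest of the 3 counts. On the TPM scale the counts were 101 for control, 48 for Rel dsRNA and 15 for IκB dsRNA. In the same order they were 134, 40 and 19 after median-ratio scaling, and 102, 44 and 21 after upper-quartile scaling. The members were chosen on the control count, so these numbers are a description. The 43 genes held 2.85% of the FPKM of the Rel dsRNA library and the 18 genes 1.30% of that of the IκB dsRNA library, compared with 11.6% for the 132 members in the control library. At 100 FPKM or more in both knockdown libraries and at least 4-fold above control in both were 139 of the 33072 listed genes. The members, high in control and low in both knockdown libraries, were 132 of the 33072. With 1 control library, a loss shared by both knockdowns and a gain in the control library alone cannot be told apart.

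**Figure D3:**
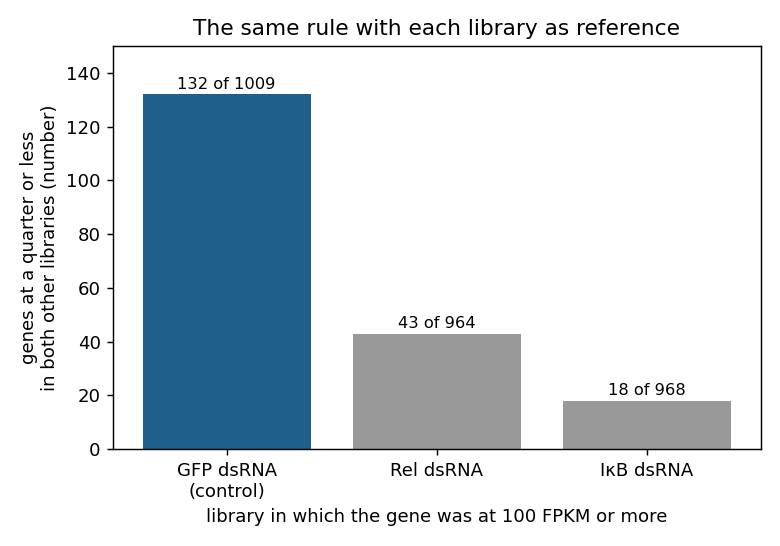
Number of genes at 100 FPKM or more in the library named below each bar and at 25% or less of that value in both other libraries. The control library gives 132 of 1009 genes, the Rel dsRNA library 43 of 964 and the IκB dsRNA library 18 of 968.

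The rule did not set the knockdown libraries against each other, although it capped both of their values by the control. On the log2(FPKM + 1) scale 111 of the 132 members (84.1%) lay within 2-fold between IκB and Rel dsRNA, compared with 82.9% of all tested genes and 90.4% of the other abundant control genes. Within 1.5-fold lay 90 members (68.2%), compared with 63.9% and 70.5%. At least 2-fold differences were seen for 12 members that were higher with IκB dsRNA (9.09%, against 8.03% of all tested genes) and for 9 that were lower (6.82%, against 9.08%). Among the 877 other abundant control genes these shares were 4.45% and 5.13%. The members' shares are thus close to those of all tested genes. The median difference of IκB dsRNA minus Rel dsRNA was 0.19 over the members (interquartile range -0.20 to 0.40), 0.11 over the other abundant control genes and -0.03 over all tested genes.

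The size of this small difference depended on the scaling of the libraries, while its direction over the members was the same on all 4 scales. In the deposited scale 84 members (63.6%) were higher and 48 lower with IκB dsRNA than with Rel dsRNA, and 58.7% of the other abundant control genes were higher. After each library was scaled to the same sum (TPM scale), 68 members (51.5%) were higher and 64 lower, with 45.7% of the other abundant control genes higher, and the members' median difference was 0.03. With median-ratio and with upper-quartile scaling 91 members (68.9%) were higher and 41 lower, with a median difference of 0.27 in each case. On the TPM scale the 2-fold mark was passed by 8 members higher and 11 members lower with IκB dsRNA, in place of 12 and 9, so the balance past 2-fold did turn there. With median-ratio and with upper-quartile scaling it was 14 and 8.

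The members furthest apart between the knockdown libraries included all those listed at 0. BGI_novel_G008728 stood at 1435 FPKM with GFP dsRNA and 290.4 FPKM with Rel dsRNA, and was listed at 0 with IκB dsRNA. BGI_novel_G010214 stood at 387 FPKM with GFP dsRNA and 87.3 FPKM with Rel dsRNA, and was likewise listed at 0 with IκB dsRNA. With Rel dsRNA these genes kept 20.2% and 22.6% of control, so their values ran from high in control through intermediate to 0. In the other direction, pfu_aug2.0_3201.1_05782 stood at 298 FPKM with GFP dsRNA and 33.8 FPKM with IκB dsRNA, and was listed at 0 with Rel dsRNA. BGI_novel_G010157 stood at 1112 FPKM in control, at 45.2 FPKM after Rel dsRNA and at 275 FPKM after IκB dsRNA, a log2 difference of 2.58 between the knockdown libraries. Without the 3 members listed at 0, the members past 2-fold were 11 higher and 7 lower with IκB dsRNA.

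**Figure D4:**
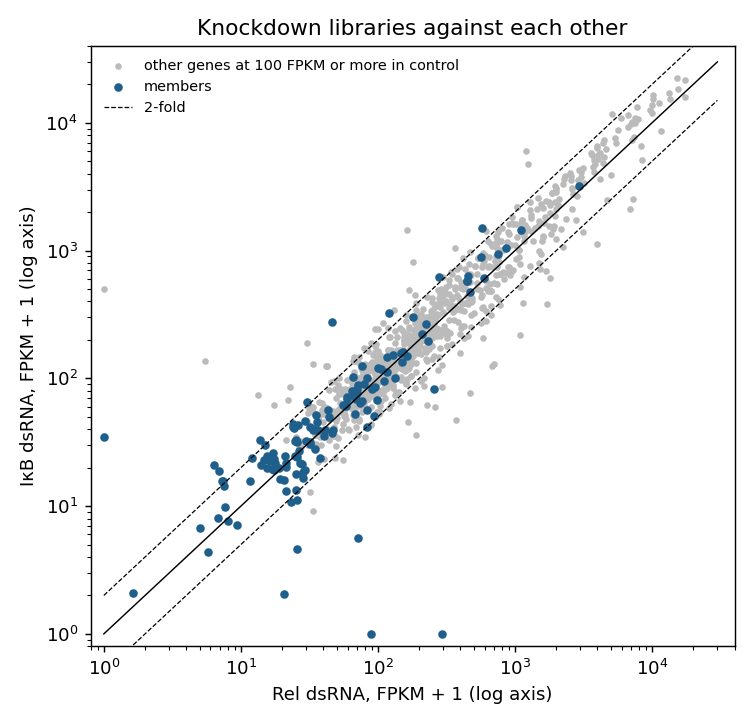
FPKM + 1 with IκB dsRNA against FPKM + 1 with Rel dsRNA on log axes, with the 132 members in blue and the 877 other abundant control genes in grey. The solid line marks equal values and the dashed lines 2-fold. Of the members 111 lie between the dashed lines, and the 3 points on the lower and left edges are the members listed at 0.

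The identifiers, which the rule did not use, were of 2 types, pfu_aug2.0 and BGI_novel. BGI_novel identifiers made up 57.6% of the members (76 genes), 52.0% of the abundant control genes and 35.5% of all listed genes. Of the abundant control genes 14.5% of those with BGI_novel and 11.6% of those with pfu_aug2.0 identifiers were members. The median control level was 338 FPKM for BGI_novel members and 261 FPKM for pfu_aug2.0 members. Of the 9 members at least 2-fold lower with IκB than with Rel dsRNA, 8 had BGI_novel identifiers. Of the 12 that were higher, 7 did. These counts are small, and the matching shares among other genes are not given here, so they do not mark out the members. Members with the same 3 values as another gene numbered 0, and 28 of the 1009 abundant control genes had such values.

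Some members had another member at a nearby identifier number of the same type. Within 3 numbers, this held for 18 of the 132 members (13.6%), compared with 27 of the 877 other abundant control genes (3.08%) and 2.24% of all tested genes outside the members. The grouping lay almost wholly in BGI_novel identifiers, with 16 of 76 members (21.1%) against 4.45% of the other abundant control genes of that type. For pfu_aug2.0 identifiers it was 2 of 56 members (3.57%) against 1.64%. Nearness to any abundant control gene did not separate the groups in this way: 28.8% of the members and 28.5% of the other abundant control genes had one within 3 numbers. The 18 members formed 6 pairs and 2 groups of 3. Whether neighbouring numbers mean neighbouring places in the genome is not given in the sources used here, and reads shared between near-identical copies may link such values, which was not tested.

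Within these groups the control level and the depth of the fall could both differ. In the pair with pfu_aug2.0 identifiers, a gene at 8472 FPKM in control stood at 597 FPKM after Rel dsRNA and at 609 FPKM after IκB dsRNA, and its neighbour went from 3066 FPKM in control to 278 and 626 FPKM. These genes kept 7.05% and 9.08% of control with Rel dsRNA, but 7.19% and 20.4% with IκB dsRNA. In a pair of BGI_novel genes the control values were 4080 and 403 FPKM, the Rel dsRNA values 753 and 54.8 FPKM, and the IκB dsRNA values 933 and 60.8 FPKM. The more abundant gene of this pair kept more of its control level, 18.5% against 13.6% with Rel dsRNA and 22.9% against 15.1% with IκB dsRNA. A group of 3 held consecutive BGI_novel numbers at 387, 386 and 335 FPKM in control, at 89.6, 34.1 and 73.4 FPKM with Rel dsRNA, and at 81.0, 38.1 and 63.2 FPKM with IκB dsRNA. Here the levels in control were alike, and the middle gene was lower than the others in both knockdown libraries.

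**Figure D5:**
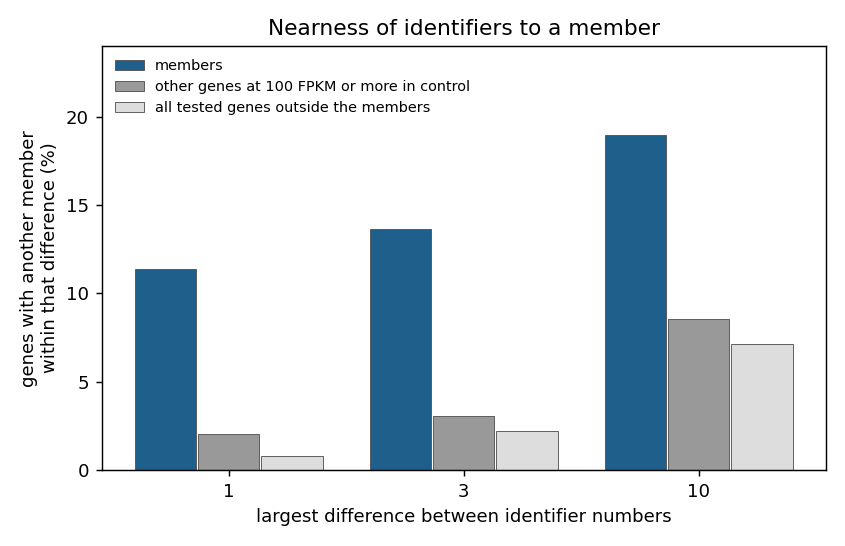
Percent of genes with another member within 1, 3 or 10 identifier numbers of the same type, for the members, the other genes at 100 FPKM or more in control and all tested genes outside the members. Within 3 numbers the values are 13.6%, 3.08% and 2.24%.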

How the data were processed

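The authors deposited 1 table of FPKM values with 2 decimals, 1 column for each of the 3 libraries, per the file headers. HISAT, Bowtie2 and RSEM are named in the submitters' processing notes without versions or roles, and neither a genome build nor an annotation is given in the sources used here. All columns were matched to libraries by name (0 unmatched).

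Computation used Python 3.11.15, numpy 2.4.6 and pandas 2.3.3. The rule was applied to plain FPKM. Differences were taken as log2(FPKM + 1), and genes whose mean over the libraries was 1 FPKM or more served as background. FPKM are not counts, so no count model was used, and with 1 library per group no test was made. The code for the rule was checked on libraries simulated from the control values with known changes. This check does not show how the rule behaves under the variation between real libraries. The number of reads is unknown. From the steps between values of 0.3 to below 3 FPKM, the Rel and IκB dsRNA libraries were an estimated 1.17 and 1.16 times as deep as the control.

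The members, and the comparisons made, were chosen with earlier results of these data known. Identifiers without gene names were limited to the 2 members highest in control, and the 2 furthest up and the 2 furthest down between IκB and Rel dsRNA. Planned gene lists could not be applied.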

Additional observations from a re-analysis of the deposited data

How the results depend on the processing

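With no replicates, no library could be left out. No paired analysis was possible because each group was 1 library. The number of members depended on its limits: it was 203 at 3-fold, 35 at 8-fold, 218 with a control minimum of 50 FPKM and 80 with 200 FPKM. On the TPM scale 101 of the 132 members met the rule, with upper-quartile scaling 102, and with median-ratio scaling 134 genes, the 132 among them. Adding 1 FPKM to each value in the rule left 130. At 3-fold, 3 members were higher with IκB than with Rel dsRNA, and 6 lower. Without the filter on low values, 7.70% of all genes were at least 4-fold below control in both knockdown libraries, against 5.00% of tested genes. In all, 54 alternative values stayed close to those reported (counts and shares within 1.5 times, median log2 differences within a 1.5-fold shift) and 6 did not. The 6 were the member counts of 203, 35, 218 and 80, the 3 members higher at 3-fold, and the 7.70%. Some of the 54 could hardly move. Counting identical values once could not change a count, since no member shared its values. A 1.5-fold shift is also larger than the median IκB minus Rel difference itself. The members' median log2 difference of IκB minus Rel dsRNA ranged from 0.03 (TPM scale) to 0.27, against 0.19. The counts for the other libraries as reference were also taken on each scale, an alternative added after the data were seen. The TPM scale moved the median log2 difference of all tested genes from control by 0.17 for Rel dsRNA. Upper-quartile scaling moved it by 0.13 for Rel and 0.18 for IκB dsRNA. Relative to the tested genes, the members' median lay between -2.81 and -2.74 for Rel dsRNA and between -2.71 and -2.66 for IκB dsRNA under all 4 scales. Each scaling divided a library by a constant, which moves members and tested genes alike apart from the added 1 FPKM. The narrow ranges follow largely from this. Depth in reads is unknown, so a listed 0 does not show that a member was absent.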

Other observations

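Abundant control genes outside the members but within 3 identifier numbers of one were examined after the grouping of the members' identifiers was seen. Of these 27 genes, 13 (48.1%) were at least 2-fold below control in both knockdown libraries, compared with 189 of the other 850 abundant control genes (22.2%). Their median levels were 39.7% of control with Rel dsRNA and 44.9% with IκB dsRNA, against 71.0% and 76.2% for the others. At least 2-fold increases in both libraries were seen for 0 of the 27 and for 47 of the 850 (5.53%). With as few as 27 genes, 0 is little different from that share. A pair of the 27 had identical values in all libraries and was counted as separate genes. The comparison was not split by identifier type, although the grouping of the members lay almost wholly in BGI_novel identifiers.

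The identifier next to the most abundant member belonged to a gene at 2137 FPKM in control, at 577 FPKM after Rel dsRNA and at 357 FPKM after IκB dsRNA. It met the 25% limit with IκB dsRNA (16.7% of control) and missed it with Rel dsRNA (27.01%).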
